A study of Homo sapiens with 4 samples.

Results

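FGA, FGB and FGG encode the alpha, beta and gamma chains of fibrinogen, and their RNA was followed in A549, a cell line established from a human lung adenocarcinoma. The chains were taken as all array probes whose single annotated symbol was FGA, FGB or FGG, which gave 5 probes of 31741 and 3 genes of 18255. FGA and FGG had 2 probes each and FGB had 1. A filter on dim genes kept the 9128 genes with a mean log2 value over the arrays of at least 7.81, or 223 intensity units. All 3 chain genes passed it. The genes were selected on earlier measured values of the same 4 arrays, their differences between plasmid-transfected and siRNA-transfected cells included, so those differences are given as a description.

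Total RNA was taken 48 h after transfection and measured on 4 one-colour arrays. The groups were cells that overexpressed WDR4 (WDR4), cells with the empty vector (vector), cells given an siRNA against PML (siPML) and cells given a control siRNA (siCtrl), with 1 array each. PML is the scaffold of PML nuclear bodies and WDR4 the partner of the tRNA methyltransferase METTL1. The design pairs siPML with siCtrl, and WDR4 with vector. The plasmid pair and the siRNA pair differ in the agent delivered and in the culture, and these cannot be told apart. No group had a replicate, so no difference was tested and the spread between cultures is unknown. In RNA of whole cultures, fewer expressing cells and less RNA per cell cannot be told apart either.

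Fibrinogen is secreted as a hexamer of paired alpha, beta and gamma chains, which are assembled in the endoplasmic reticulum. Thrombin removes short peptides from the alpha and beta chains, and the resulting fibrin polymerises into the clot. Hepatocytes are the main source, and lung epithelial cells, A549 among them, can also make it. Fibrinogen is an acute phase protein of the class that responds to IL-6 and glucocorticoid, whereas serum amyloid A belongs to the class that also responds to IL-1. The 3 genes lie side by side on chromosome 4 in the order FGB, FGA, FGG, with FGB transcribed from the opposite strand to the other two.

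The DNA just upstream of each transcription start is shown because the 3 neighbouring genes are read from 3 separate promoters. The 250 bases before each RefSeq start were taken from the GRCh38.p14 promoter table, where all 3 genes matched, and are written 5′ to 3′ on the strand of the gene. FGB has 2 start windows in that table and the more upstream one is given. Capitals mark matches, on either strand, to the letters CTGGGAA of the IL-6 response element and TTNNGNAA of the C/EBP site. The windows are chr4:154590743-154590992 on the minus strand for FGA, chr4:154562730-154562979 on the plus strand for FGB and chr4:154612657-154612906 on the minus strand for FGG.
FGA: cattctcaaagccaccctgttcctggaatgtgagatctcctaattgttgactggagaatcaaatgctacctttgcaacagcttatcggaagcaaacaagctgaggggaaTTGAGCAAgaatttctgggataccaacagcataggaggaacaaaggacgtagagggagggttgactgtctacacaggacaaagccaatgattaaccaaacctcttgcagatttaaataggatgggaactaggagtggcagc
FGB: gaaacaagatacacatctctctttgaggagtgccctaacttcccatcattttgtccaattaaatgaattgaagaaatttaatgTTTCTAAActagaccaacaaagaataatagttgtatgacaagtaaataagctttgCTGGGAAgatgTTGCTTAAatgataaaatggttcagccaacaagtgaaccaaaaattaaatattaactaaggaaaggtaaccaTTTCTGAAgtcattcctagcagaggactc
FGG: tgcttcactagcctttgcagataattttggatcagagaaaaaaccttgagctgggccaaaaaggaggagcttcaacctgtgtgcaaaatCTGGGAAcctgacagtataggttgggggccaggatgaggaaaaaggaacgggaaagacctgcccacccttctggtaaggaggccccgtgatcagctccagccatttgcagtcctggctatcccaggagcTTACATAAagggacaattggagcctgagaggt

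The promoters differed in which of these letters they held. CTGGGAA stood in FGB, 112 to 106 bases before the start, and in FGG, 161 to 155 bases before it, and was not found in the FGA window. It was present in 9.30% of the 27305 promoters of the table, searched over the same 250 bases. The C/EBP letters matched at 1 place in FGA, 3 in FGB and 1 in FGG, against 33.6% of promoters with any match. TATAAA, the core of the TATA box, was in none of the 3 windows and in 11.1% of all promoters. The marked matches did not overlap each other. By base composition the windows were 45.2% G and C in FGA, 33.2% in FGB and 50.8% in FGG, against a median of 58% over all promoters.

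Each deposited value is a linear intensity in arbitrary units. Intensities of different probes are not comparable with each other, so each probe is followed across arrays. Between 10 and 600 units, almost every deposited value equalled the mean of 2 whole-number readings scaled by constants of its array, and 10 of the 20 values of the fibrinogen probes could be resolved in this way. Whether the readings came from 2 scans, spots or arrays is unstated in the sources used here. The scatter between readings gave a technical standard error (SE), which leaves out all variation between cultures. Differences are of log2(intensity + 1), the first-named array minus the second, and folds are 2 raised to their size.

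FGB, the beta chain, had the widest range of the 3 genes. Its probe read 164 on WDR4, 182 on vector, 2072 on siPML and 3835 on siCtrl. Both plasmid arrays were far below both siRNA arrays, and on the plasmid arrays FGB lay under the intensity of the filter, which it passed through its level on the siRNA arrays. The readings behind the low values were 175 and 154 on WDR4 and 179 and 184 on vector, so the readings of these 2 arrays did not overlap.

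FGG, the gamma chain, which carries binding sites for platelet and leukocyte integrins, was high and low on the same arrays as FGB. The brighter FGG probe read 495 on WDR4, 483 on vector, 1723 on siPML and 4432 on siCtrl. The dimmer FGG probe read 170 on WDR4, 205 on vector, 638 on siPML and 1246 on siCtrl. On both probes siCtrl was highest, siPML second and the plasmid arrays lowest. The readings of the brighter probe were 515 and 476 on WDR4 and 454 and 511 on vector, and those of the dimmer probe 179 and 162 on WDR4 and 211 and 200 on vector. The readings of the plasmid arrays overlapped on the brighter probe and did not on the dimmer.

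FGA, the alpha chain, was also lower on the plasmid arrays, but its 2 probes ordered the siRNA arrays differently. The brighter FGA probe read 1277 on WDR4, 1469 on vector, 6892 on siPML and 5597 on siCtrl. The dimmer FGA probe read 79.0 on WDR4, 63.0 on vector, 184 on siPML and 309 on siCtrl. The dimmer probe had readings of 203 and 165 on siPML, the least alike of the 10 resolved values, and of 307 and 311 on siCtrl. These groups of readings did not overlap. On WDR4 the readings of this probe were 76.4 and 81.6, and on vector they were 62.4 and 63.6. The probe sequences were not used here, so which FGA transcripts each probe detects is not stated.

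**Figure D1:**
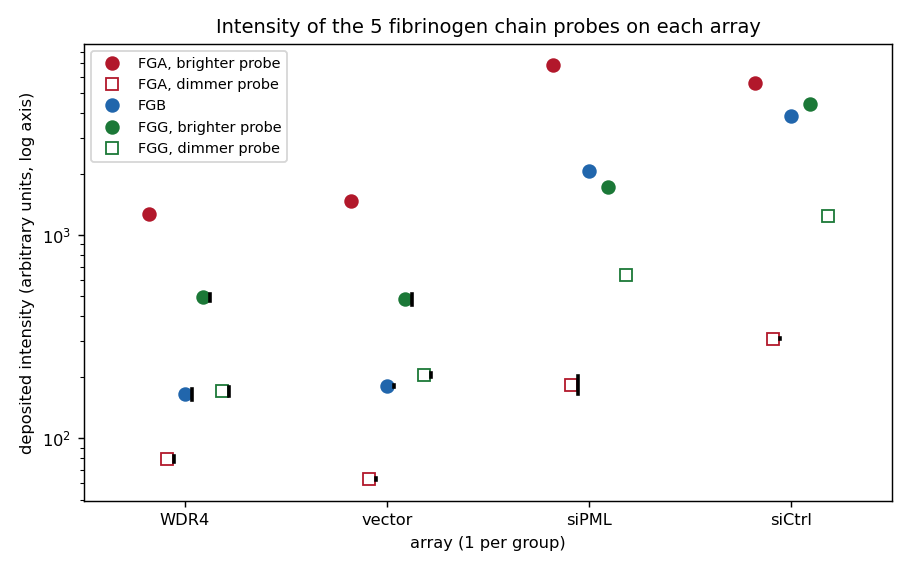
Deposited intensity (log axis) of the 5 fibrinogen chain probes on the WDR4, vector, siPML and siCtrl arrays, 1 array each, with black bars joining the 2 readings behind a value where they could be resolved. Every probe was lower on WDR4 and vector than on siPML and siCtrl, as for FGB at 164 and 182 against 2072 and 3835.

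The comparison of siPML with siCtrl asks what depletion of PML does to the chains. FGG was 2.57-fold lower on siPML by its brighter probe, a log2 difference of -1.36 (technical SE 0.11), and its dimmer probe differed by -0.96 (technical SE 0.11). FGB was 1.85-fold lower, with a difference of -0.89 (technical SE 0.11). FGA went both ways, since its brighter probe differed by 0.30 (technical SE 0.11) and its dimmer probe by -0.75 (technical SE 0.12). Each of these 5 differences had a 95% technical interval that did not include 0, and the signs were the same after quantile normalization and after centring of each array. With the mean of the FGA probes in place of the brighter one, FGA differed by -0.22. Set against the vector array in place of siCtrl, FGB and FGG were higher on siPML, by 3.50 and 1.83. Vector is not the matched control, and the chains were chosen with their low values on it known. These 2 values therefore do not check the direction against siCtrl.

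Counted by the brightest probe of a gene, 1 of the 3 chains, FGG, was at least 2-fold lower on siPML and none was at least 2-fold higher. Over all genes above the filter, 4.27% reached 2-fold lower and 2.3% 2-fold higher, which is 390 and 210 genes, or 499 and 162 after centring. Among these 9128 genes, 150 had a lower difference than FGG and 511 a lower one than FGB, while 2341 had a higher one than FGA. FGG lay outside the central 95% of genes, which spanned -1.19 to 0.97, and the other two lay within it. PML itself read 506 on siPML and 853 on siCtrl on its brightest probe, a difference of -0.75, and its other 3 probes differed by -0.28, -0.42 and -1.44.

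Whether the chains kept their proportions between siPML and siCtrl depended on the probe. Relative to FGA by the brighter probe, FGG was 3.17-fold lower on siPML than on siCtrl (log2 -1.66, technical SE 0.16) and FGB was 2.28-fold lower (-1.19, technical SE 0.16). FGB and the brighter FGG probe differed from each other by 0.47 (technical SE 0.16). By the dimmer probes, a choice made after seeing the data, FGG differed from FGA by -0.22 (technical SE 0.17), FGB from FGA by -0.14 (technical SE 0.17) and FGB from FGG by 0.075 (technical SE 0.16). None of these 3 gaps reached 1.5 times its technical SE. The 2 FGA probes themselves were 1.05 apart (technical SE 0.17). Over the 3 genes the differences spanned a range of 1.66 by the brighter probes, 0.94 with the mean over the probes of a gene and 0.22 by the dimmer probes.

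WDR4 and vector, which asks what overexpressed WDR4 does, differed little in the chains. FGB differed by -0.14 (95% technical interval -0.32 to 0.031) and the brighter FGG probe by 0.037 (-0.12 to 0.20), both with 0 inside the interval. The dimmer FGG probe differed by -0.27 (-0.44 to -0.094). The brighter FGA probe differed by -0.20 (-0.36 to -0.044) and the dimmer by 0.32 (0.025 to 0.62), in opposite directions. For the brighter FGG probe the sign turned to -0.042 after centring of each array.

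None of the 3 chains was 2-fold different between WDR4 and vector, where 0.362% of all genes reached 2-fold higher and 0.285% 2-fold lower. These were 33 and 26 genes, or 27 and 38 after centring. The 3 differences spanned a range of 0.24, or 0.59 by the dimmer probes of FGA and FGG, and those of the brighter probes lay within the central 95% of genes, -0.63 to 0.62. WDR4 itself read 4708 on WDR4 and 1140 on vector on its brighter probe and 890 and 1191 on its dimmer one.

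**Figure D2:**
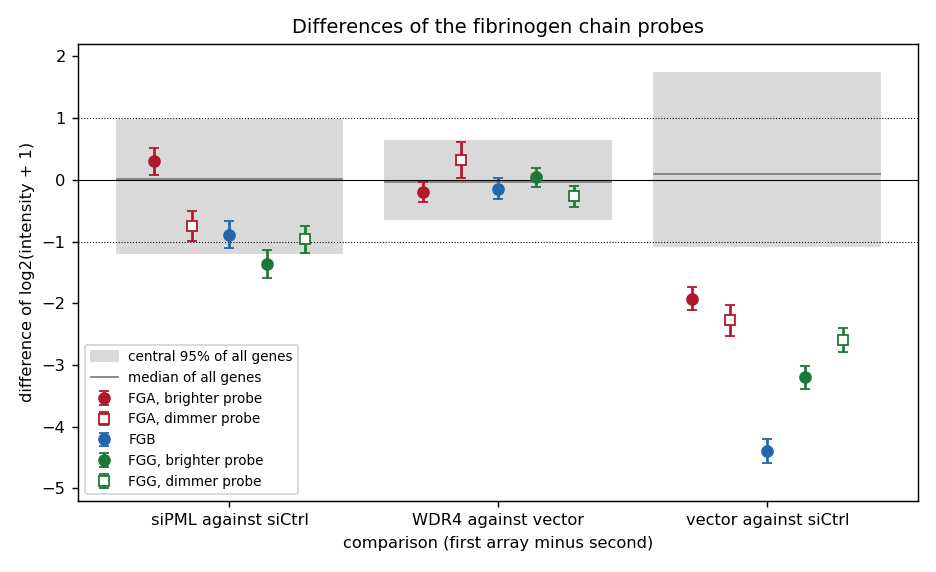
Difference of log2(intensity + 1) of the 5 fibrinogen probes in siPML against siCtrl, WDR4 against vector and vector against siCtrl, with bars for the 95% technical interval, grey bands for the central 95% of all genes above the filter and dotted lines at 2-fold. FGG at -1.36 leaves the band on siPML, no probe leaves it on WDR4 against vector, and every probe leaves it on vector against siCtrl, from -1.93 to -4.39.

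A wide gap of the chains lay between the 2 control arrays. FGB was 21.0-fold lower on vector than on siCtrl, with a log2 difference of -4.39 (technical SE 0.097). FGG was 9.16-fold lower by its brighter probe (-3.20, technical SE 0.095) and 6.04-fold lower by its dimmer probe (-2.59, technical SE 0.097). FGA was 3.81-fold lower by its brighter probe (-1.93, technical SE 0.095) and 4.84-fold lower by its dimmer probe (-2.28, technical SE 0.13). Both probes of a gene thus went the same way here. The empty vector carries neither manipulation under study, but the targeted genes also differed between these arrays. PML read 3840 on vector and 853 on siCtrl (2.17), with its other probes at 1.58, 0.83 and 1.30. WDR4 read 1140 on vector and 2350 on siCtrl (-1.04), with its dimmer probe at -0.90. The part of PML and WDR4 in the differences of the chains was not tested. The fibrinogen genes were chosen by this contrast. It shares its siCtrl array with the siPML comparison and its vector array with the WDR4 comparison.

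All 3 chains were at least 2-fold lower on vector than on siCtrl, where 3.14% of all genes reached 2-fold lower and 9.43% 2-fold higher. These were 287 and 861 genes, or 602 and 519 after centring. FGB had the lowest difference of the 9128 genes, FGG the second lowest, and 18 genes had a lower one than FGA. WDR4 against siCtrl uses the same control array and gave differences of -4.54 for FGB, -3.16 for FGG and -2.13 for FGA, beside 3.11% of all genes at least 2-fold lower. Centring each array moved the median of all genes in vector against siCtrl by -0.25, and relative to it FGB differed by -4.64, FGG by -3.45 and FGA by -2.18.

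The chains were unequally low on vector. FGB was 5.52-fold lower relative to FGA (log2 -2.46, technical SE 0.14) and 2.29-fold lower relative to FGG (-1.20, technical SE 0.14). FGG was 2.41-fold lower relative to FGA by the brighter probes (-1.27, technical SE 0.13), whereas the dimmer ones gave a gap of -0.32 (technical SE 0.16). The 3 differences spanned a range of 2.46, or 2.12 by the dimmer probes, against an interquartile span of all genes from -0.27 to 0.53. In order of intensity, FGB and the dimmer FGG probe ran siCtrl, siPML, vector, WDR4, the brighter FGG probe and the dimmer FGA probe siCtrl, siPML, WDR4, vector, and the brighter FGA probe siPML, siCtrl, vector, WDR4. WDR4 and vector did not differ beyond the technical interval for FGB and the brighter FGG probe.

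**Figure D3:**
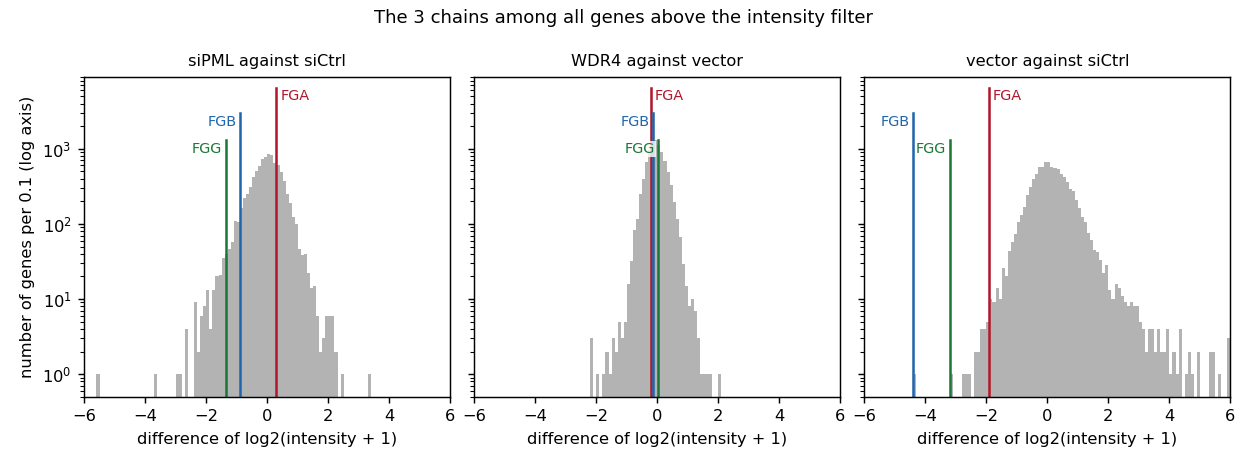
Histograms (log axis) of the difference of log2(intensity + 1) over the 9128 genes above the filter in 3 comparisons, with the 3 chains as coloured lines whose heights carry no value; 2 genes above 6 are drawn at the right edge of the last panel. In vector against siCtrl, FGB at -4.39 and FGG at -3.20 are the lowest and second lowest of these 9128 genes.

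How alike the chains were over the 4 arrays was described by the Euclidean distance between their log2 profiles, each taken relative to its own mean over the arrays. Here and for the nearest genes, FGA and FGG entered by their brighter probes alone. The dimmer FGA probe, which had siPML below siCtrl where the brighter had it above, was not used. FGB and FGG were 1.57 apart, FGA and FGG 1.23, and FGA and FGB 2.02. Among 9060 other genes above the filter and below the scanner's limit, none lay nearer to FGB than FGG did, and 4 lay nearer to it than FGA did. For FGG, 18 genes were nearer than FGA and 78 nearer than FGB. For FGA, 165 genes were nearer than FGG and 2446 nearer than FGB. The 4 arrays give 3 independent differences per gene, so these distances describe these arrays alone.

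Nearest to the mean profile of the chains was APOH, which encodes the plasma protein beta-2-glycoprotein I, at a distance of 0.59. It read 117 on WDR4, 102 on vector, 636 on siPML and 658 on siCtrl, low on both plasmid arrays as the chains were. Genes picked by nearness share the shape of the chains by construction. Next came the neural adhesion protein CNTN1 (0.78), the aldehyde dehydrogenase ALDH3A1 (0.91), the mitochondrial methyltransferase ATPSCKMT (0.94) and the tetraspan membrane protein TM4SF4 (0.97).

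Nearest to FGA alone were the serine protease inhibitor SERPINI1 (0.35), the secreted scavenger receptor protein DMBT1 (0.37) and RIMKLA (0.52), a ligase that makes N-acetylaspartylglutamate. DMBT1 read 142 on WDR4, 114 on vector, 651 on siPML and 514 on siCtrl. It had siPML above siCtrl as for the brighter FGA probe, by which it was picked. Both probes of SERPINI1 were higher on siPML than on siCtrl, by 0.59 and 1.13. FGB had APOH (1.61), CNTN1 (1.65) and ATPSCKMT (1.99) nearest to it, and FGG had ALDH3A1 (0.86), TM4SF4 (0.89) and APOH (0.94).

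**Figure D4:**
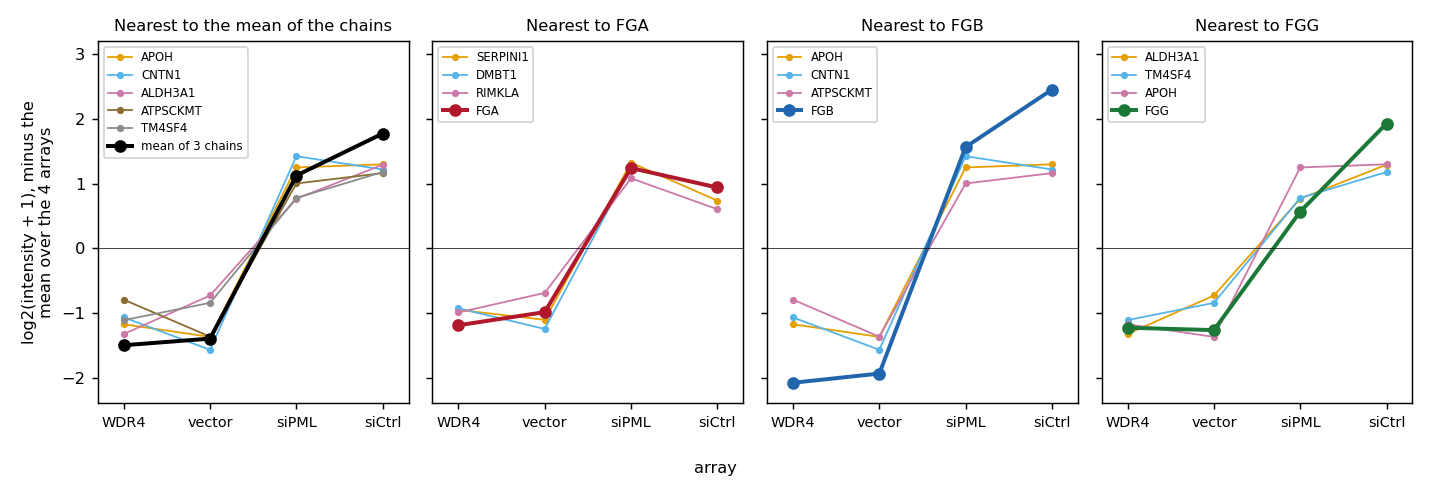
Profiles over the WDR4, vector, siPML and siCtrl arrays of log2(intensity + 1) minus the mean over the arrays, with the thick line for the mean of the chains, FGA, FGB or FGG and thin lines for the genes nearest to it. FGA and FGG are drawn by their brighter probes. All lines are below 0 on WDR4 and vector and above 0 on siPML and siCtrl, a shape the thin lines share because they were picked by nearness. FGB spans a wider range than APOH, CNTN1 and ATPSCKMT, the genes nearest to it.

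Of the genes on either side of the fibrinogen cluster, 1 was bright enough to compare. PLRG1, a splicing factor gene next to FGB, read 388 on WDR4, 420 on vector, 370 on siPML and 392 on siCtrl, a difference of 0.099 between vector and siCtrl. LRAT, the retinol acyltransferase gene beyond FGG, was dim on all arrays, from 10.0 on siCtrl to 30.9 on siPML, and did not pass the filter. These neighbours were looked up after the values of the chains had been seen.

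Markers were used to check the labelled cell line and other sources of fibrinogen. The epithelial genes KRT19, EPCAM and CDH1 and the A549 genes AKR1B10, AKR1C1, ALDH1A1 and TXNRD1 passed the filter, whereas the probes of KRT8 and NQO1 were dim, at most 71.3 and 27.5. Of 8 hepatocyte markers, APOH and APOA1 passed the filter, and the other 6, albumin (ALB) at up to 36.5 among them, reached at most 167. The summed hepatocyte marker intensity was 623 on WDR4 and 559 on vector, against 1231 on siPML and 1147 on siCtrl, and most of this gap was APOH. Blood and endothelial lists had no member above the filter, the platelet list 1 of 4 (ITGA2B) and the fibroblast list 1 of 4 (COL1A1). CDH1, the epithelial cadherin, read 6882 on WDR4, 7828 on vector, 1374 on siPML and 5311 on siCtrl. The epithelial genes did not share a direction on siPML against siCtrl. CDH1 (-1.95) and EPCAM (-0.62) were lower, while KRT19 (0.46) and the dim KRT8 (0.74) were higher. The part of these markers in the differences of the chains was not tested.

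Genes linked to fibrinogen were examined in 8 lists. Of the members named for 2-fold differences, APOH, IL11, SERPINA5, PLAT, ITGA5 and ITGAX lay under the filter's 223 units on at least 1 array and passed it through arrays on which they were brighter, which favours a difference. In the list of 20 IL-6 family and STAT3 signalling genes, 13 passed the filter. On siPML, 2 of the 13 were at least 2-fold lower and none higher, beside 4.27% and 2.3% of all genes, with a median difference of -0.48 against 0.0085 over all genes. These were STAT3, the transcription factor through which IL-6 acts on fibrinogen genes, at 2088 on siPML against 7184 on siCtrl (-1.78), and the cytokine IL11, at 139 against 472 (-1.75). The dimmer STAT3 probe differed by -1.52. The phosphatase PTPN11 (-0.88) and the kinase JAK2 (-0.84) followed.

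On vector against siCtrl the same list had a median difference of 0.31, against 0.099 over all genes, with 1 of 13 members at least 2-fold higher, IL11 (1.91), and none lower, beside 9.43% and 3.14% of all genes. STAT3 differed by 0.34. IL6 did not pass the filter, its mean log2 value over the arrays being too low, and was named after its values were seen. It read 631 on WDR4, 976 on vector, 13.5 on siPML and 50.4 on siCtrl. It was thus higher on both plasmid arrays, on which the chains were lower, with a log2 difference of 4.25 on vector against siCtrl. On WDR4 against vector, no listed gene above the filter reached 2-fold, and the median was 0.086 against -0.043 over all genes.

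Of 13 transcription factors described at fibrinogen promoters, 10 had a named probe and 6 passed the filter. None of the 6 was 2-fold different in any of the 3 comparisons. Their medians were -0.18 on siPML against siCtrl, -0.29 on WDR4 against vector and 0.47 on vector against siCtrl. CEBPA was lower on siPML at 1084 against 1554 on siCtrl (-0.52) and lower on WDR4 at 2039 against 2926 on vector (-0.52). On vector against siCtrl, CEBPA differed by 0.91, CEBPB by 0.73 and NR3C1, the glucocorticoid receptor, by 0.65, while CEBPD differed by -0.40. NR3C1 differed by -0.66 on siPML, but its other 2 probes by -0.060 and 0.39.

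Of 20 other acute phase genes, 9 passed the filter. On vector against siCtrl, 5 of the 9 reached 2-fold higher and 1 reached 2-fold lower, beside 9.43% and 3.14% of all genes. Their median was 1.20, against 0.099 over all genes. Complement factor CFB read 14763 on vector and 2270 on siCtrl (2.70), and serum amyloid SAA1 read 7348 on vector and 1467 on siCtrl (2.32), though its near-identical copy SAA2 can share signal. On siPML against siCtrl the median was 0.29, with SAA2 at 1.42 and the protease inhibitor SERPINA3 at -1.08 as the 2 members at 2-fold, beside 2.3% of all genes higher and 4.27% lower. The other SAA2 probe, dim at 16.5 on siPML and 14.9 on siCtrl, differed by 0.13. On WDR4 against vector the median was 0.20, with no member at 2-fold.

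Of 21 other liver-made plasma proteins, 6 passed the filter. On vector, 3 of the 6 were at least 2-fold lower than on siCtrl and none higher, beside 3.14% and 9.43% of all genes, with a median of -0.90. These were APOH (-2.67), the hyaluronan-binding ITIH2 (-1.23) and AMBP, the precursor of alpha-1-microglobulin (-1.13). The others did not reach 2-fold, with RBP4 at -0.67, APOA1 at -0.33 and APOE at 0.69. Neither of the other comparisons had a member at 2-fold, although APOE (-1.03) and ITIH2 were 2-fold lower on siPML after centring, and their medians were -0.11 on siPML against siCtrl and -0.056 on WDR4 against vector.

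Of 21 listed proteins with a fibrinogen-like domain, 4 passed the filter. FGL1, a liver-secreted fibrinogen-like protein, read 17576 on siPML and 7434 on siCtrl, 2.36-fold higher (1.24), and 2657 on WDR4 against 3838 on vector (-0.53). FGL1 differed by -0.95 on vector against siCtrl. ANGPTL4, an inhibitor of lipoprotein lipase, was higher on WDR4 at 7902 against 2957 on vector (1.42) and lower on vector than on siCtrl (-1.67). FGL1 on siPML and ANGPTL4 in these comparisons were the members at 2-fold, 1 of 4 each time, beside 2.3% of all genes higher on siPML, 0.362% higher on WDR4 and 3.14% lower on vector. The medians over the 4 genes were 0.39 on siPML against siCtrl, 0.28 on WDR4 against vector and -0.59 on vector against siCtrl.

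The genes that form, cross-link and dissolve fibrin went in several directions. Of 29 coagulation factors and inhibitors, 13 passed the filter. On siPML, F3, the tissue factor that starts coagulation, read 1177 against 426 on siCtrl (1.46) and protein C (PROC) was higher by 1.28, while SERPINA5, the protein C inhibitor, differed by -1.65. These were the 2 higher and 1 lower of the list at 2-fold, beside 2.3% and 4.27% of all genes, with a median of 0.21. On vector against siCtrl the inhibitor TFPI2 was higher (1.60) and protein S (PROS1) lower, at 1310 on vector against 4681 on siCtrl (-1.84), 1 in each direction beside 9.43% of all genes higher and 3.14% lower, with a median of 0.37. No member reached 2-fold on WDR4 against vector, where SERPINA5 differed by -0.76 and the median was 0.13.

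Of 13 genes of fibrinolysis and cross-linking, 8 passed the filter. TGM2, a transglutaminase that can cross-link fibrin, read 811 on siPML and 3763 on siCtrl (-2.21), and its dimmer probe differed by -0.73. The plasminogen activator PLAT was higher on siPML (1.30), the median of the list being 0.39. These were the 2 members at 2-fold, 1 in each direction, beside 2.3% of all genes higher and 4.27% lower. On vector against siCtrl, PLAT (1.95) and the urokinase PLAU (1.39) were higher and the plasmin cofactor ANXA2 lower (-1.04), 2 and 1 of the 8 beside 9.43% and 3.14% of all genes, with a median of 0.40. On WDR4 against vector the median was 0.092 and none reached 2-fold.

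Among 12 receptors of fibrinogen and fibrin, 6 passed the filter. ITGAV, an integrin subunit, read 4478 on siPML and 2109 on siCtrl (1.09), with its other probe at 1.08, and ITGA5 was higher by 1.20. These were the 2 members at 2-fold on siPML, beside 2.3% of all genes, with a median of 0.74, and after centring ITGA5 alone reached it, ITGAV being at 0.98. ICAM1, an adhesion receptor that binds fibrinogen, read 4125 on vector and 490 on siCtrl (3.07), ITGAX differed by 1.84 and ITGA5 by 1.68, 3 of the 6 beside 9.43% of all genes, with a median of 0.83. On WDR4 against vector ITGAV differed by 0.80 on its brighter probe and 0.031 on its dimmer one, and the median was 0.024.

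**Figure D5:**
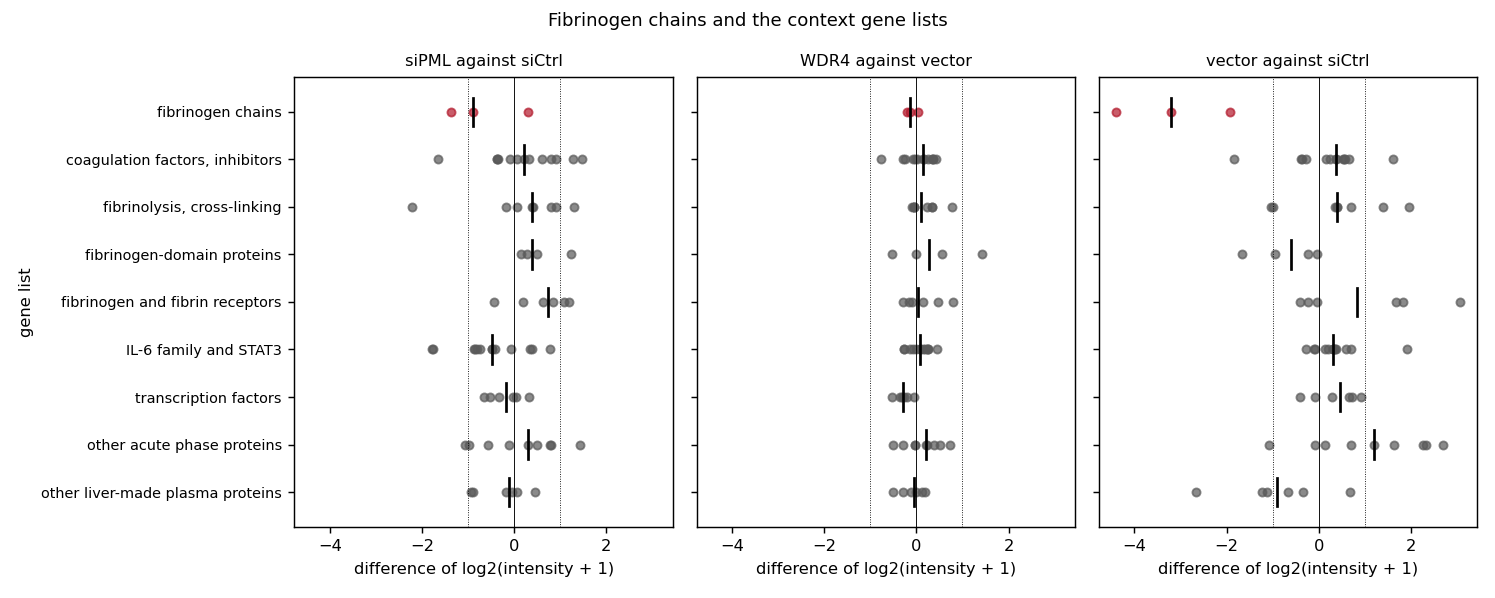
Difference of log2(intensity + 1) of the 3 fibrinogen chains (red) and of the members above the filter of 8 gene lists (grey) in 3 comparisons, with black bars for medians and dotted lines at 2-fold. On vector against siCtrl the chains lie at -1.93 to -4.39, while the medians of the lists run from -0.90 for other liver-made plasma proteins to 1.20 for other acute phase proteins.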

How the data were processed

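The authors deposited 1 linear intensity per probe and array. Per the labels' protocols, column-purified total RNA was amplified and labelled with Cy5. Scanner, background correction, normalization and genome build are unstated in the sources used here.

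Of 31741 probes, 24658 had 1 symbol, 1002 several and 6081 none. Only the first were named, with 2177 symbols updated through RefSeq. Values below 0 were set to 0, and 1 was added before log2. Each gene took its probe with the highest mean. The filter was the median of the genes' mean log2 values, 7.81. Readings were accepted within 2.5-fold of each other. They matched 95.7% to 100% of values, and at most 0.749% after the values were shifted by a small constant. Their log2 ratio had SDs of 0.105 to 0.162 between 300 and 600 units. Brighter values were assigned the same error, and dimmer ones that of their own range, up to 0.331. The SE of a value is its SD divided by 2. The number of arrays limits the precision.

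Members and lists were chosen with earlier results of these data known. Named genes were the targets, the chains, the 5 genes nearest to their mean profile, the 3 nearest to each chain, and up to 4 members per list and comparison with the largest difference. Alternatives were quantile normalization, centring, 16 added before log2, the mean over probes, other controls, other filters and a 1.5-fold threshold. The steps were tested on simulated data. Python 3.11.15, numpy 2.4.6, pandas 2.3.3 and matplotlib 3.10.9 were used.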

Additional observations from a re-analysis of the deposited data

How the results depend on the processing

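No paired analysis was possible because each group has 1 array. No replicate could be left out. Of 48 alternative values of the chain differences, 30 moved by less than the 95% technical interval. Against vector, siPML differed by 2.23 for FGA, 3.50 for FGB and 1.83 for FGG, and against the mean of both controls by 1.26, 1.31 and 0.24. Vector is not the matched control of siPML, and the chains were chosen with their low values on it known. These values therefore do not check the direction against siCtrl. For WDR4 against siCtrl the differences were -2.13 for FGA, -4.54 for FGB and -3.16 for FGG, and against the mean of both controls -1.17, -2.34 and -1.56. With the mean over probes, FGA differed by -0.22 on siPML against siCtrl and by 0.060 on WDR4 against vector, FGG by -2.90 on vector against siCtrl, and the range of the chains on siPML was 0.94. By the dimmer probes of FGA and FGG, an alternative chosen after seeing the data, the range was 0.22 on siPML against siCtrl, 0.59 on WDR4 against vector and 2.12 on vector against siCtrl. Centring gave -2.18, -4.64 and -3.45 for FGA, FGB and FGG on vector against siCtrl.

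Counts of genes at least 2-fold higher and lower changed with the filter and the threshold. Without the filter, 734 were higher on siPML against siCtrl, 404 higher and 81 lower on WDR4 against vector, and 1694 higher and 536 lower on vector against siCtrl. Above the upper quartile of intensity, the counts in the same order were 68 higher and 198 lower, 11 and 14, and 324 and 165. At 1.5-fold they were 922 and 1174, 282 and 305, and 2039 and 969. Centring gave 519 higher and 602 lower on vector against siCtrl, against 861 and 287 without it. Of the list medians, 33 of 144 alternative values moved beyond the technical interval, and of the list counts 51 of 336 by over 1.5 times. After centring, 1 receptor in place of 2 was 2-fold higher on siPML, and 2 of the other liver-made plasma proteins in place of 0 were 2-fold lower. On the plasmid arrays FGB and the dimmer FGG and FGA probes are dim, which limits the precision of their folds.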
